A study of Mus musculus with 4 samples.

Results

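The collagen genes are the 44 mouse gene symbols that read Col, a type number, the letter a and a chain number, out of 46095 symbols counted in bulk RNA of the stomach. The choice used the names and no measured value, and 11 were set apart as fibrillar collagens, 8 as basement membrane collagens and 25 as other types. The samples came from Atp4b-cre; MycOE mice and from WT mice at 12 weeks of age, with 2 samples of each genotype. The transgenic mice were Atp4b-cre; Myc fl/+, in which the promoter of Atp4b, a proton pump gene of acid-secreting parietal cells, drives Cre and Cre in turn activates human c-Myc. The WT controls were Myc fl/fl littermates, and the strain was C57BL/6. Both genotypes therefore carry the floxed transgene, and bulk RNA of gastric tissue also holds that of cells in which Cre is not active. The question was how the level of each collagen transcript differed between the genotypes.

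Collagens are the main structural proteins of the extracellular matrix. Each is a trimer of alpha chains wound into a triple helix, which requires glycine at regular steps of 3 residues. Fibrillar collagens such as types I, III and V assemble into the fibrils of connective tissue, whereas type IV collagen forms the network of the basement membrane under epithelia and around vessels and muscle. Types XV and XVIII also belong to the basement membrane zone, and the remaining types decorate fibrils, form beaded filaments or anchoring fibrils, or span the cell membrane. In the stomach wall most fibrillar chains are made by fibroblasts of the lamina propria and submucosa, while basement membrane chains come from epithelial, endothelial and muscle cells alike.

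The glycine repeat differed between the fibrillar chains and the rest. The types are defined by structure, so this describes them and is not a separate result. In the principal transcript of each gene the longest unbroken run of codons with glycine (GGN) at every step of 3 held 216 to 344 triplets in the 11 fibrillar genes, with a median of 338. It held 30 to 66 triplets in the 8 basement membrane genes and 23 to 113 in the 25 others. Within the fibrillar group Col24a1 and Col27a1 had the shortest runs, of 216 and 217 triplets. The 6 type IV chains instead had 22 to 27 separate runs of at least 5 triplets, and these runs took up 75.4% to 80.0% of their codons. The start of the long run of Col3a1 and a stretch of Col4a4 are shown because they differ in this repeat and both fell in the transgenic mice, with glycine codons in capitals. In Col4a4 the spacing by threes breaks off in the middle of the stretch and is then taken up again.
Col3a1, codons 164 to 187: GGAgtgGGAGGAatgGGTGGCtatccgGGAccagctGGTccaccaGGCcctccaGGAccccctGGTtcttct
Col4a4, codons 946 to 969: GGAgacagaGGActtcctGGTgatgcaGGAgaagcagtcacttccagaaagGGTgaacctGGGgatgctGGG

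**Figure D1:**
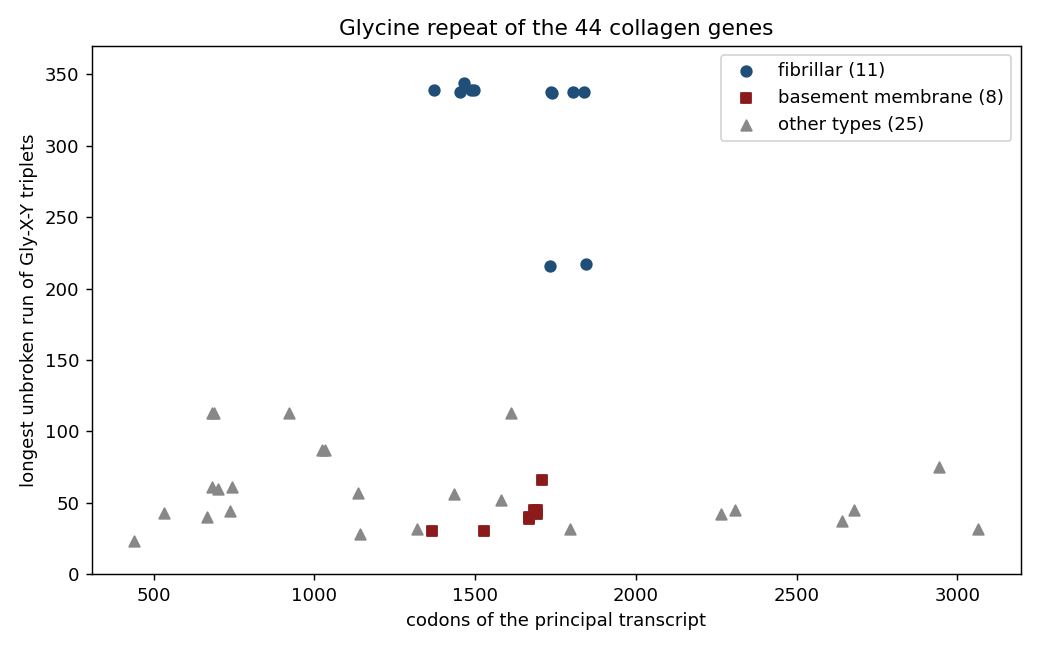
Longest unbroken run of Gly-X-Y triplets (y axis) against the number of codons of the principal transcript (x axis), with 1 point for each of the 44 collagen genes. The 11 fibrillar genes lie at 216 to 344 triplets, above all 33 others, whose runs end at 113.

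The type IV genes lie head to head in pairs on chromosomes 8, 1 and X of GRCm38. The transcription starts of Col4a1 and Col4a2 overlap by 22 bases, those of Col4a6 and Col4a5 are 1308 bases apart, and those of Col4a4 and Col4a3 are separated by only 71 bases. This last interval, between 2 of the members with the largest falls, is printed on the minus strand, the direction in which Col4a4 is read.
Col4a4 to Col4a3, chr1:82586850-82586920: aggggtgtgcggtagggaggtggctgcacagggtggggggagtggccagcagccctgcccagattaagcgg
The 250 bases before the start of Col3a1, the most abundant member, are printed beside it from the plus strand, with the letters TATAAA in capitals.
Col3a1, chr1:45311288-45311537: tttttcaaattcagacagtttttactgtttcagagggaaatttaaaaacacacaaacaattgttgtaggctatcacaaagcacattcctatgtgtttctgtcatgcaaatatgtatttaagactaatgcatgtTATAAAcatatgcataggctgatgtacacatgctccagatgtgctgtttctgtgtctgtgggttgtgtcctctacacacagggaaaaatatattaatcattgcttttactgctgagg
Promoter windows of RefSeq GRCm38.p6, from 250 bases before to 50 after the start, were matched for 35 of the 44 genes (38 windows) and searched on both strands. TATAAA was found in 5 member windows, those of Col3a1, Col10a1, Col11a2, Col13a1 and Col17a1, against 13.6% of 32851 windows of all genes. GGGCGG, the GC box, was found in 23 member windows (35.7% of all windows) and CCAAT in 13 (37.4%). CACGTG, the E-box that MYC is known to bind, was in none of the 38 member windows and in 7.2% of all windows. These are matches of letters within the windows and say nothing on binding.

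Gene names and counts were brought into register before any comparison, by a re-sorting that is inferred from the table and is not stated in the sources used here. In the deposited table the names follow an order without regard to case, and the counts of both transgenic columns were given, row by row, to the names in character code order. Every one of the 44 collagen names moved by 3 rows between these orders, so no member kept its deposited transgenic counts. In the deposited order the row of Col1a1 carried 565 and 3147 transgenic counts, which are assigned to Col17a1 after re-sorting, and the counts of Col1a1, 4450 and 8820, stood beside Col22a1. Across the 44 members, which are not independent of each other, Pearson's r of mean log2(count + 1) between the genotypes was -0.037 in the deposited order and 0.904 after re-sorting, beside 0.987 for the WT pair and 0.976 for the transgenic pair. These correlations are descriptions over genes, given without a test. With edgeR on the deposited order 38 of the 44 members passed the thresholds given below, 22 lower and 16 higher, where 84.1% of all tested genes passed. All values that follow are from the re-sorted counts and depend on this inference. Among the 20 members that were called or most abundant, Col4a3, Col4a4, Col9a3 and Col26a1 have the opposite sign in the deposited order. Members outside these 20 change sign as well, such as Col23a1, with 572 and 295 WT counts against 5044 and 11498 transgenic counts as deposited. In that order 26 of 44 members had a log2 fold change below 0, against 36 of 42 after re-sorting.

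**Figure D2:**
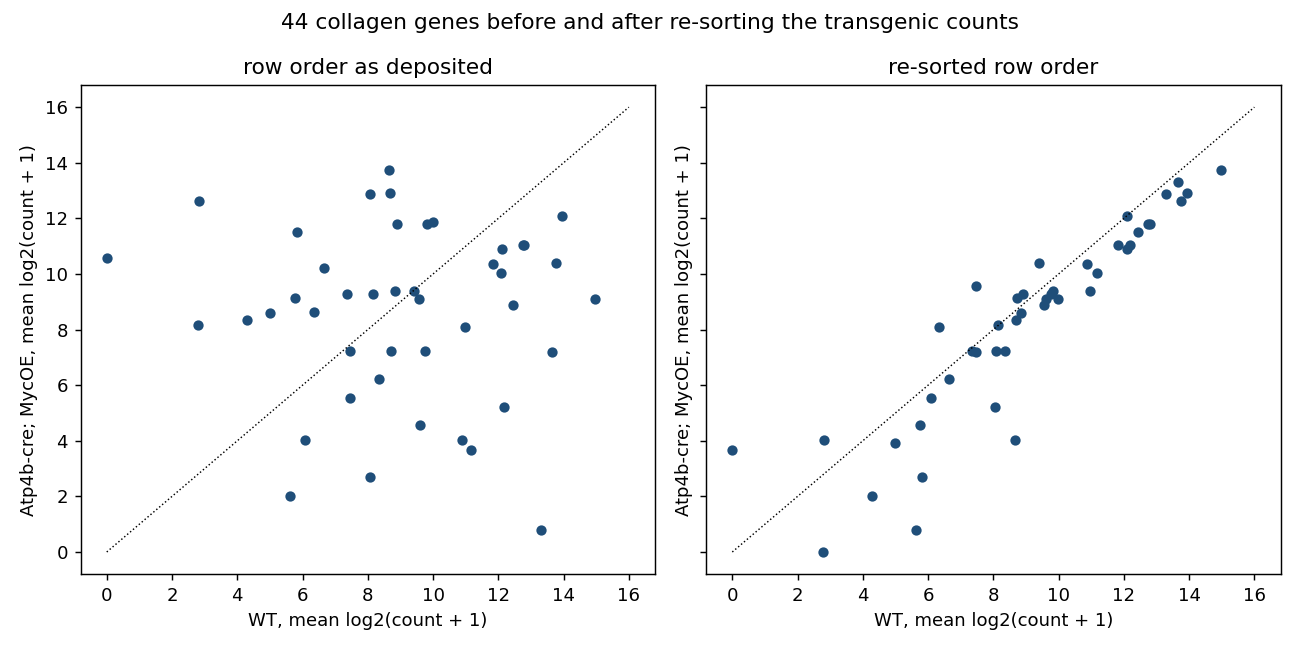
Mean log2(count + 1) of the 2 Atp4b-cre; MycOE samples (y axis) against that of the 2 WT samples (x axis) for the 44 collagen genes, with the names as deposited at left and re-sorted at right. The dotted line marks equal values. Points scatter without order at left (r -0.037) and follow the line, most of them below it, at right (r 0.904).

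Counts summed to 30260305 to 41463647 per sample, and 0.176% to 0.431% of them fell on collagen genes. Replicates varied beyond counting noise, the chi-square per degree of freedom being 28.9 in the WT pair and 97.9 in the transgenic pair. WT replicate 2 stood apart in its sex markers, with 17846 Xist counts against 85 to 201 in the other 3 samples and 5 counts of the Y-linked gene Ddx3y against 1861 to 2623, so both transgenic samples resemble WT replicate 1 in this respect. The labels number the samples but do not say that they are separate animals, so p-values measure the spread between these samples. Levels are given as CPM, the read count scaled to library size, with TMM factors, and a gene was called at an edgeR adjusted p-value under 0.05 and a change of more than 1.5-fold.

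The summed collagen level was 4292 and 4670 CPM in the WT samples and 1631 and 2453 CPM in the Atp4b-cre; MycOE samples, so the genotypes did not overlap. The means were 4481 ± 267 and 2042 ± 582 CPM (SD, n = 2), a ratio of 2.19, and the exact two-sided permutation test gave p = 0.333, the smallest value possible with 2 samples against 2. Fewer collagen-producing cells and less collagen RNA per cell cannot be told apart in bulk tissue. The shares of the types within the collagen counts differed as well. Fibrillar chains made up 50.4% and 54.4% of collagen counts in WT samples and 41.1% and 44.7% in transgenic samples, whereas basement membrane chains made up 26.7% and 25.0% against 36.5% and 30.5%. The share of other types, 22.9% and 20.7% in WT, overlapped the 22.4% and 24.8% of the transgenic samples.

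Per kilobase of the principal transcript, Col3a1 was the most abundant collagen in both genotypes, with a mean of 189 CPM per kb in WT and 65.9 in transgenic mice. In WT it was followed by Col1a2 (96.3), Col1a1 (76.7), Col4a1 (63.8) and Col6a2 (57.3 CPM per kb). In transgenic mice Col4a1 (39.6) came second, ahead of Col1a2 (38.0), Col4a2 (30.3) and Col1a1 (27.7 CPM per kb). Of these neighbours Col4a1 lay above Col1a2 in transgenic replicate 1 and below it in replicate 2, with 34.9 and 44.3 against 27.8 and 48.1 CPM per kb. Col4a2 (25.4 and 35.1 CPM per kb) lay below Col1a2 and above Col1a1 (22.1 and 33.3 CPM per kb) in each transgenic sample. Its range across the samples overlapped both of theirs, and the order was not tested. Col4a1 also lay above Col1a1 in both transgenic samples. In the WT samples Col3a1 stood clear, with 174 and 203 CPM per kb against at most 102 for Col1a2. Col6a1 and Col6a2 were level with each other, at 56.6 and 57.3 CPM per kb in WT.

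**Figure D3:**
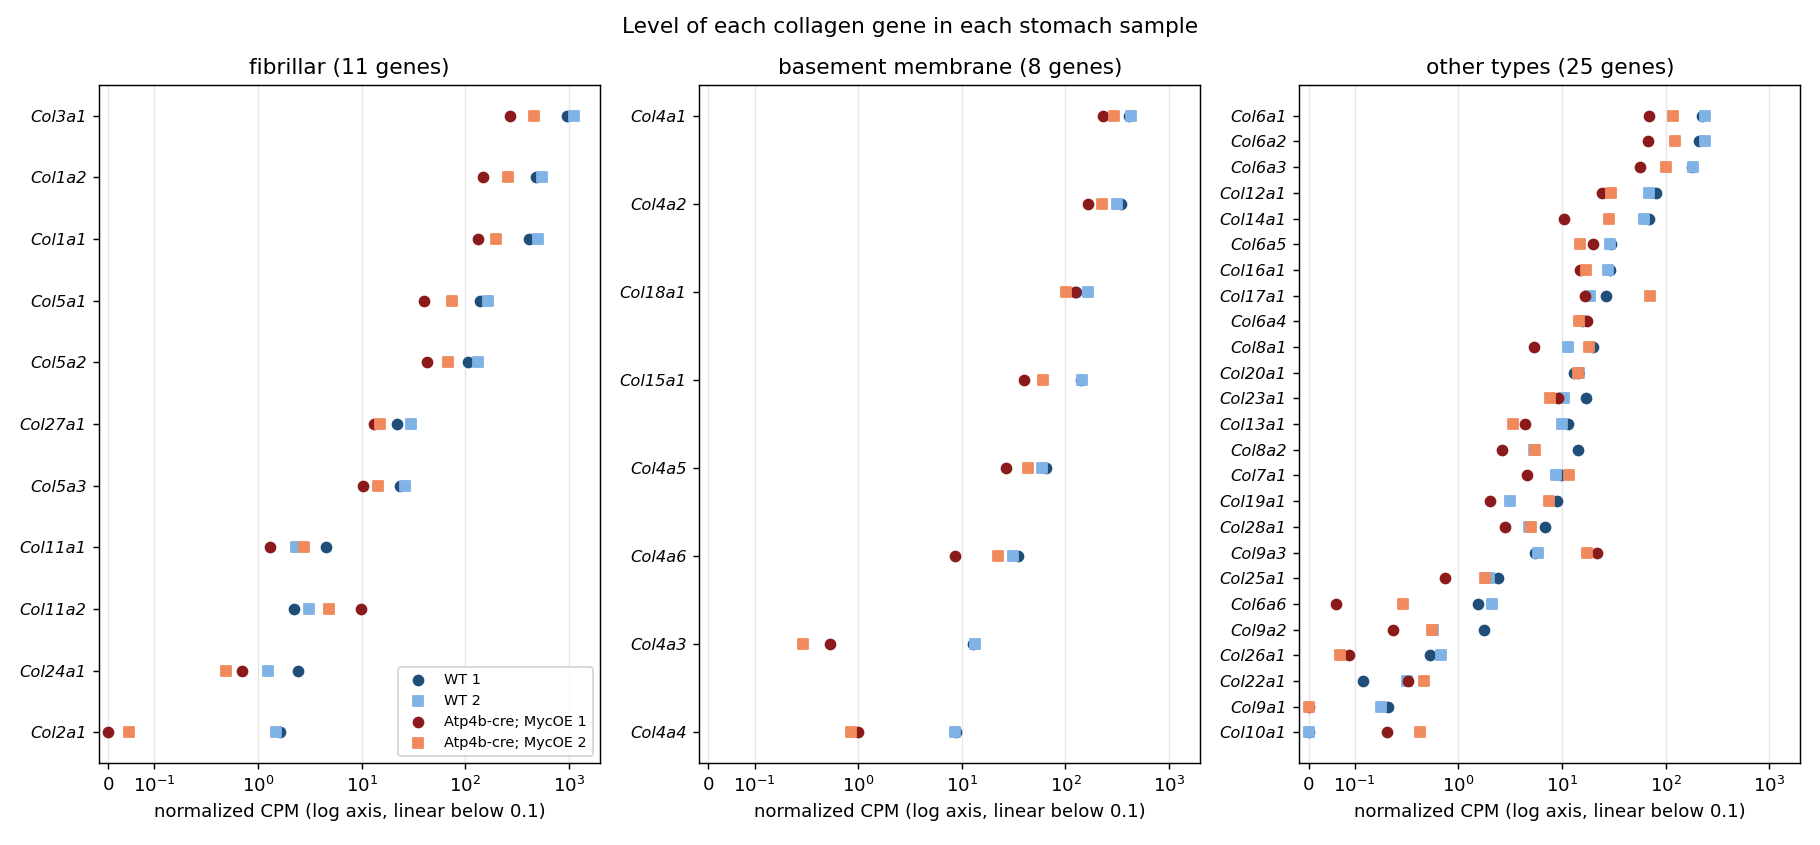
Normalized CPM (x axis, log scale, linear below 0.1) of the 44 collagen genes, in 3 panels by type and ordered by WT mean, with 1 point per sample. Both transgenic samples lie left of both WT samples for all 8 basement membrane genes and 9 of 11 fibrillar genes, and Col9a3 lies to the right.

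Of the 44 members 42 passed edgeR's filter on low counts and were tested. In Atp4b-cre; MycOE stomach 11 were called lower, where 5.08% of all 17643 tested genes were, and 1 was called higher, where 5.65% were. The fallen members were Col1a1, Col2a1 and Col3a1 among the fibrillar chains, Col4a3, Col4a4 and Col15a1 among the basement membrane chains, and Col6a1, Col12a1, Col13a1, Col16a1 and Col26a1 among the others. Of the fallen members Col2a1 and Col26a1 passed the filter through their WT samples alone. Col9a3 was the only member that edgeR called higher. The log2 fold change was below 0 for 36 of the 42 (85.7%, against 49.1% of all tested genes), with a median of -1.05 against 0.01. In 30 members both transgenic samples lay below both WT samples, an arrangement found in 31.5% of all tested genes, and in 3 members (Col9a3, Col11a2 and Col22a1) they lay above, as did 33.3% of all tested genes. The remaining 30 were not called, and 12 of these missed narrowly, with changes past 1.5-fold downwards and adjusted p-values between 0.05 and 0.1. Transgenic replicate 1 lay below replicate 2 in 31 of the 42.

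**Figure D4:**
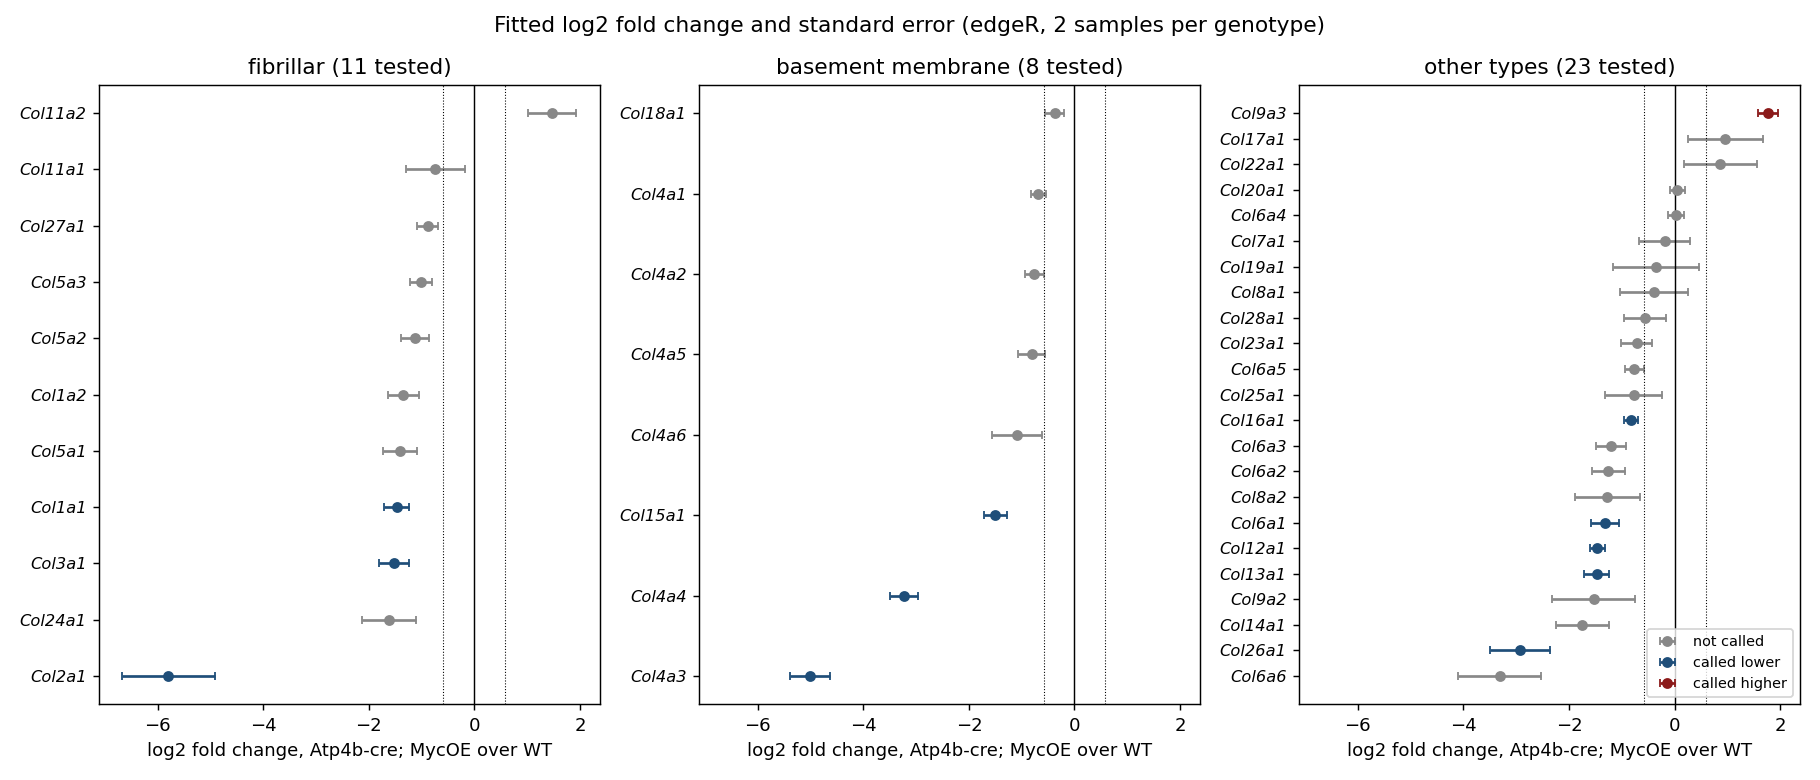
Fitted log2 fold change of Atp4b-cre; MycOE over WT (x axis) with its standard error for the 42 tested collagen genes, in 3 panels by type. Dotted lines mark a 1.5-fold change, and the value of Col2a1 depends on edgeR's prior count because its transgenic counts are 0 and 2. Most points lie between -2 and 0, and Col2a1, Col4a3, Col4a4, Col6a6 and Col26a1 lie farther left.

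Among the fibrillar collagens 3 of 11 tested chains fell, beside 5.08% of all tested genes. The log2 fold change was below 0 in 10 of the 11, and the median was -1.34. Col3a1, whose homotrimer forms the fine reticular fibrils of distensible organs, had 32474 and 31537 counts (968 and 1130 CPM) in WT and 9229 and 20606 counts (272 and 461 CPM) in transgenic mice. The genotypes were well separated although the transgenic samples differed 1.70-fold from each other. It fell 2.86-fold, with a log2 fold change of -1.52 (SE 0.29, edgeR adjusted p = 0.0437). Col1a1, the chain present in 2 copies in each type I trimer, had 13753 and 13932 counts (409.8 and 499 CPM) in WT and 4450 and 8820 counts (131 and 197 CPM) in transgenic mice. It fell 2.77-fold (log2 fold change -1.47, SE 0.24, adjusted p = 0.0349). Its partner Col1a2 had 484 and 546 CPM in WT and 149 and 257 CPM in transgenic mice, again without overlap, but with a log2 fold change of -1.34 (SE 0.29) it missed the threshold at an adjusted p of 0.0542. The ratio of Col1a1 to Col1a2 counts was 0.847 and 0.915 in WT and 0.882 and 0.767 in transgenic samples, so the balance of the type I chains overlapped between the genotypes.

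Type V collagen sits inside type I fibrils and limits their width. Col5a1 had 138 and 166 CPM in WT and 40.1 and 74.3 CPM in transgenic mice (log2 fold change -1.41, SE 0.33, adjusted p = 0.0616). Col5a2 had 106 and 133 CPM against 42.3 and 67.6 CPM (-1.12, SE 0.27, adjusted p = 0.0645). Col5a3 had 23.6 and 26.0 CPM against 10.3 and 14.4 CPM (-1.004, SE 0.21, adjusted p = 0.0522). All 3 type V chains were thus non-overlapping and lower in value, as were 31.5% of all tested genes. None was called by edgeR, while DESeq2, which called 3232 genes in all, called all 3 lower. The ratio of Col5a2 to Col5a1 counts was 0.768 and 0.802 in WT and 1.06 and 0.909 in transgenic samples.

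Col2a1, the cartilage collagen, was scarce. WT samples held 55 and 42 counts, the transgenic samples 0 and 2, and it was called lower (adjusted p = 0.0323). It passed the filter on low counts through its WT samples alone, and a minimum of 10 counts in every sample left it untested. From the summed counts the transgenic level was 0.0161 of WT, with an exact 95% interval of 0.00193 to 0.0598 that covers counting error only. Col11a2, a chain of type XI collagen, was the single fibrillar gene above 0. It had 2.21 and 3.12 CPM in WT and 9.88 and 4.84 CPM in transgenic mice (log2 fold change 1.47, SE 0.45, adjusted p = 0.104). DESeq2 called it higher, as did edgeR without transgenic replicate 2. Its partner Col11a1 overlapped between genotypes, with 4.53 and 2.33 against 1.30 and 2.80 CPM. The fibrillar genes with the shorter glycine runs, Col27a1 and Col24a1, had log2 fold changes of -0.89 and -1.62 with adjusted p-values of 0.0613 and 0.110.

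All 8 basement membrane collagens had log2 fold changes below 0, with a median of -0.95, both transgenic samples lay below both WT samples in each (31.5% of all tested genes did), and 3 were called lower (5.08% of all tested genes were). The falls were of very different size within type IV. Col4a3, a chain of the alpha-3/alpha-4/alpha-5 network best known from the kidney glomerulus, had 430 and 375 counts (12.8 and 13.4 CPM) in WT and 18 and 13 counts (0.531 and 0.291 CPM) in transgenic mice. It fell 32.1-fold (log2 fold change -5.01, SE 0.38, adjusted p = 0.0158). Its exons share 563 bases (5.65% of their length) with C430014B12Rik on the opposite strand, and the strand setting of the counting was not given. Col4a4, its neighbour across the 71 bases printed above, had 296 and 239 counts (8.82 and 8.57 CPM) in WT and 34 and 38 counts (1.002 and 0.851 CPM) in transgenic mice. It fell 9.37-fold (-3.23, SE 0.26, adjusted p = 0.0168). In both genes the samples of each genotype lay close to each other beside the distance between the genotypes.

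The third chain of that network, Col4a5, had 64.7 and 58.9 CPM in WT and 26.5 and 43.7 CPM in transgenic mice and was not called (log2 fold change -0.81, SE 0.26, adjusted p = 0.110). The ratio of Col4a3 to Col4a5 counts was 0.198 and 0.228 in WT and 0.0200 and 0.00666 in transgenic samples. The ratio of Col4a4 to Col4a5 was 0.136 and 0.146 against 0.0378 and 0.0195. Col4a3 and Col4a4 thus differed more between the genotypes than the chain they assemble with. Col4a6, which pairs with Col4a5 in smooth muscle basement membranes, had 35.1 and 31.2 CPM against 8.61 and 22.4 CPM (-1.09, SE 0.48, adjusted p = 0.193).

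Col4a1 and Col4a2, the chains of nearly every basement membrane, were the most abundant of the group. Col4a1 had 414 and 429 CPM in WT and 231 and 293 CPM in transgenic mice (log2 fold change -0.69, SE 0.14, adjusted p = 0.0508). Col4a2 had 345 and 317 CPM against 164 and 227 CPM (-0.76, SE 0.18, adjusted p = 0.0655). Neither was called, and the ratio of Col4a1 to Col4a2 counts, 1.20 and 1.36 in WT, was 1.41 and 1.29 in transgenic samples. Col15a1, a proteoglycan collagen that links the basement membrane to the fibrils beneath it, had 4707 and 4004 counts (140.3 and 144 CPM) in WT and 1356 and 2692 counts (39.98 and 60.26 CPM) in transgenic mice. It fell 2.83-fold (-1.50, SE 0.22, adjusted p = 0.0303). Its relative Col18a1, the source of endostatin, had 127 and 165 CPM against 124 and 101 CPM and the smallest change of the group (-0.37, SE 0.18, adjusted p = 0.220).

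The 25 other collagens were mixed, with 5 called lower and 1 higher of 23 tested, beside 5.08% and 5.65% of all tested genes. They had 18 log2 fold changes below 0 and a median of -0.77. Type VI collagen builds beaded filaments between fibrils and basement membranes, and its main chains held close to each other. Col6a1 had 7592 and 6636 counts (226 and 238 CPM) in WT and 2368 and 5224 counts (69.8 and 117 CPM) in transgenic mice, and it fell 2.48-fold (log2 fold change -1.31, SE 0.27, adjusted p = 0.0493). Col6a2 had 211 and 241 CPM against 66.9 and 123 CPM (-1.25, SE 0.31, adjusted p = 0.0716). Col6a3 had 180.3 and 182 CPM against 56.9 and 100.1 CPM (-1.21, SE 0.29, adjusted p = 0.0655). Only the first of these similar changes passed the threshold. Col6a4, in contrast, had 15.6 and 15.7 CPM in WT and 17.3 and 14.4 CPM in transgenic mice (log2 fold change 0.02, adjusted p = 0.936). Col6a5 (-0.76, adjusted p = 0.0606) and Col6a6, with 52 and 59 counts against 2 and 13 (-3.31, adjusted p = 0.0644), were not called.

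The fibril-associated collagens with interrupted triple helices (FACIT) bind to the surface of fibrils. Of 8 tested, 2 fell and 1 rose, beside 5.08% and 5.65% of all tested genes. Col12a1, a fibril-linking collagen of dense connective tissue, had 2712 and 1941 counts (80.8 and 69.6 CPM) in WT and 832 and 1340 counts (a mean of 27.3 ± 3.87 CPM, SD, n = 2) in transgenic mice, a 2.76-fold fall (log2 fold change -1.46, SE 0.15, adjusted p = 0.0198). Col16a1 had 969 and 770 counts (28.9 and 27.6 CPM) against 508 and 754 counts (15.0 and 16.9 CPM), a 1.77-fold fall (-0.83, SE 0.13, adjusted p = 0.0332). Both were tight within genotypes. Col14a1, related to Col12a1, had 69.1 and 62.2 CPM against 10.5 and 28.6 CPM, and with transgenic samples 2.72-fold apart it was not called (-1.75, SE 0.50, adjusted p = 0.0898).

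Col9a3, a chain of type IX collagen known from cartilage, ran the other way. It had 185 and 165 counts (5.51 and 5.91 CPM) in WT and 731 and 776 counts (21.6 and 17.4 CPM) in transgenic mice, and rose 3.41-fold (log2 fold change 1.77, SE 0.19, adjusted p = 0.0201). Its exons share 234 bases (6.07% of their length) with Tcfl5 on the opposite strand, which had 0 to 5 counts per sample. Col9a2, with 59 and 16 WT counts against 8 and 25, was not called (log2 fold change -1.53, adjusted p = 0.249). Col9a1, which was not tested, held 7 and 5 WT counts and none in the transgenic samples, at least 5.12-fold lower at a floor of 3 counts over the group. Col22a1, Col19a1 and Col20a1 were not called (log2 fold changes 0.87, -0.36 and 0.05).

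Membrane-spanning collagens differed among themselves. Col13a1, which is found at cell-matrix junctions, had 384 and 278 counts (11.4 and 9.97 CPM) in WT and 148 and 149 counts (4.36 and 3.34 CPM) in transgenic mice, a 2.78-fold fall (log2 fold change -1.48, SE 0.24, adjusted p = 0.0348). Col17a1, the hemidesmosome collagen of stratified epithelia, had 26.3 and 18.6 CPM in WT and 16.7 and 70.5 CPM in transgenic mice. Its transgenic samples lay on either side of WT (0.96, SE 0.71, adjusted p = 0.405), and it was called higher without transgenic replicate 1. The summed squamous epithelium markers were split in the same way, at 44.9% and 219% of the WT mean in the same samples, and their part in this value was not tested. Col23a1 and Col25a1 had log2 fold changes of -0.72 and -0.77 with adjusted p-values of 0.171 and 0.379.

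Col26a1 held 18 and 19 WT counts (0.536 and 0.681 CPM) and 3 in each transgenic sample (0.0885 and 0.0672 CPM) and was called lower (log2 fold change -2.92, SE 0.57, adjusted p = 0.0462). It passed the filter on low counts through its WT samples alone, and edgeR without that filter did not call it (adjusted p = 0.0691). From summed counts the transgenic level was 0.127 of WT, with an exact 95% counting interval of 0.0438 to 0.303. Col7a1, which forms the anchoring fibrils of squamous epithelium, had 9.80 and 8.82 CPM against 4.57 and 11.7 CPM, so the genotypes overlapped (-0.19, adjusted p = 0.818). The short chain collagens Col8a1 (-0.39, adjusted p = 0.713) and Col8a2 (-1.27, adjusted p = 0.231) overlapped as well, and Col28a1 had a log2 fold change of -0.57 (adjusted p = 0.380). Col10a1, the collagen of hypertrophic cartilage, was not tested. It had no counts in WT and 7 and 19 in transgenic samples, at least 6.78-fold higher at the floor of 3 counts over the group.

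Genes that modify, cut and cross-link collagen were counted beside the 5.08% of all tested genes called lower and 5.65% called higher by edgeR. DESeq2 called 3232 genes in all, where edgeR called 1892. The share of all genes with an unadjusted p under 0.05 is not given, for these and the later lists. Of 21 genes of chain modification and folding 2 fell and 1 rose, with a median log2 fold change of -0.51. P4ha2, a prolyl 4-hydroxylase subunit (-1.42, adjusted p = 0.0228), and P3h4, a partner of lysyl and prolyl hydroxylases (-0.82, adjusted p = 0.0323), fell, and Colgalt1, which adds galactose to hydroxylysine (1.11, adjusted p = 0.0171), rose. In this list 10 genes had an unadjusted p under 0.05 and DESeq2 called 7. The collagen chaperone Serpinh1 had 185 and 238 CPM in WT and 87.6 and 163 CPM in transgenic mice (-0.75, adjusted p = 0.200). Of 14 genes of procollagen cleavage and crosslinking all had values below 0 (median -1.03), and only Pxdn, the peroxidase that cross-links type IV collagen, was called by edgeR (-1.15, adjusted p = 0.0277), while 7 had an unadjusted p under 0.05 and DESeq2 called 6. None of the 9 collagen receptor genes tested was called by edgeR, and the median was -0.81, while 4 had an unadjusted p under 0.05 and DESeq2 called 4. Of 9 tested genes of collagen breakdown and its inhibitors 2 fell, the gelatinases Mmp2 (-1.52, adjusted p = 0.0444) and Mmp9 (-1.96, adjusted p = 0.0462), while 5 had an unadjusted p under 0.05 and DESeq2 called 4.

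Partners of the main collagen types were counted in the same way, beside the 5.08% of all tested genes called lower. Of 15 laminins and other basement membrane partners 4 fell, with a median of -0.68. They were the laminin chains Lama4 (log2 fold change -1.48, adjusted p = 0.0300) and Lamb1 (-1.15, adjusted p = 0.0359), the linker Nid2 (-1.31, adjusted p = 0.0210) and the heparan sulphate proteoglycan Hspg2 (-1.36, adjusted p = 0.0416). Of 14 fibril-associated matrix genes, all with values below 0 and a median of -1.22, 2 fell, the small proteoglycan Fmod (-2.55, adjusted p = 0.0316) and tenascin C, Tnc (-1.25, adjusted p = 0.0316). In each of these lists 11 genes had an unadjusted p under 0.05 and DESeq2 called 10. The 5.08% is the share of edgeR calls and does not apply to these counts, and DESeq2 called 3232 genes in all.

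Cell type markers were summed in the same samples, and their calls stand beside the 5.08% of all tested genes called lower and 5.65% called higher. The summed fibroblast markers stood at 95.8% and 104% of the WT mean in WT and at 30.7% and 56.2% in transgenic samples. The summed collagens stood at 95.8% and 104% in WT and at 36.4% and 54.8% in transgenic samples. All 10 had log2 fold changes below 0, 3 were called lower (Pdgfra, Tcf21 and Cd34), and none of the list was at 0 in any sample. In edgeR 8 of them had an unadjusted p under 0.05, and DESeq2 called 8. The endothelial sum was 39.8% and 38.5% of WT in transgenic samples, with all 7 tested markers called lower. Smooth muscle markers, at 122% and 77.8% in WT and 40.2% and 85.2% in transgenic samples, overlapped and none of 8 was called. Adipocyte markers (53.4% and 147% against 5.16% and 10.8%, 2 of 6 called lower, with Adipoq, Lep and Retn at 0 in a sample) and mesothelial markers (46.2% and 154% against 26.8% and 33.8%, 0 of 4 called) were lower in sum in both transgenic samples. Nerve and Schwann cell markers were at 50.4% and 76.8%, with 0 of 7 called. Of the lists with no edgeR call, smooth muscle had 0 markers with an unadjusted p under 0.05 and 0 called by DESeq2, the mesothelial list 1 and 1, and the nerve list 1 and 0. For the adipocyte list these counts were 6 and 4. The part of these cells in the collagen values was not tested.

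Epithelial and other lists differed in other ways. Parietal cell markers were at 1.77% and 2.38% of the WT mean in transgenic samples (6 of 6 called lower), and chief cell markers at 1.44% and 1.83% (3 of 4). The pooled surface and neck mucous cell markers were at 50.9% and 42.9%, and the 4 of 6 called lower were the surface markers Muc5ac, Gkn1, Gkn2 and Tff1. The neck markers Muc6 and Tff2 were not called, with log2 fold changes of 0.13 and 0.53. Simple epithelium markers, at 104% and 112%, had none of 6 called. Leukocyte markers summed to 183% and 192%, a sum carried by the mast cell protease Mcpt1 (1.19 and 5.99 CPM in WT, 80.4 and 94.3 CPM in transgenic samples). Without Mcpt1 the list stood at 62.9% and 50.6%, below both WT samples. Of its 7 tested markers Mcpt1 was called higher, and the macrophage and myeloid genes Adgre1 (log2 fold change -2.27) and Itgam (-1.76) were called lower. Skeletal muscle markers, at 17.1% and 890.0%, set transgenic replicate 2 apart, as did the squamous list, and none of 5 and none of 9 was called. The unadjusted p was under 0.05 for 0 skeletal muscle, 1 squamous and 2 simple epithelium markers, of which DESeq2 called 0, 1 and 1. Pancreatic acinar markers were at 39.6% and 55.4%, or 92.1% and 29.6% without Cel, with 1 of 2 tested called lower and Cpa1, Prss2, Pnlip and Cela2a at 0 in a sample. Their part in the collagen values was not tested either.

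**Figure D5:**
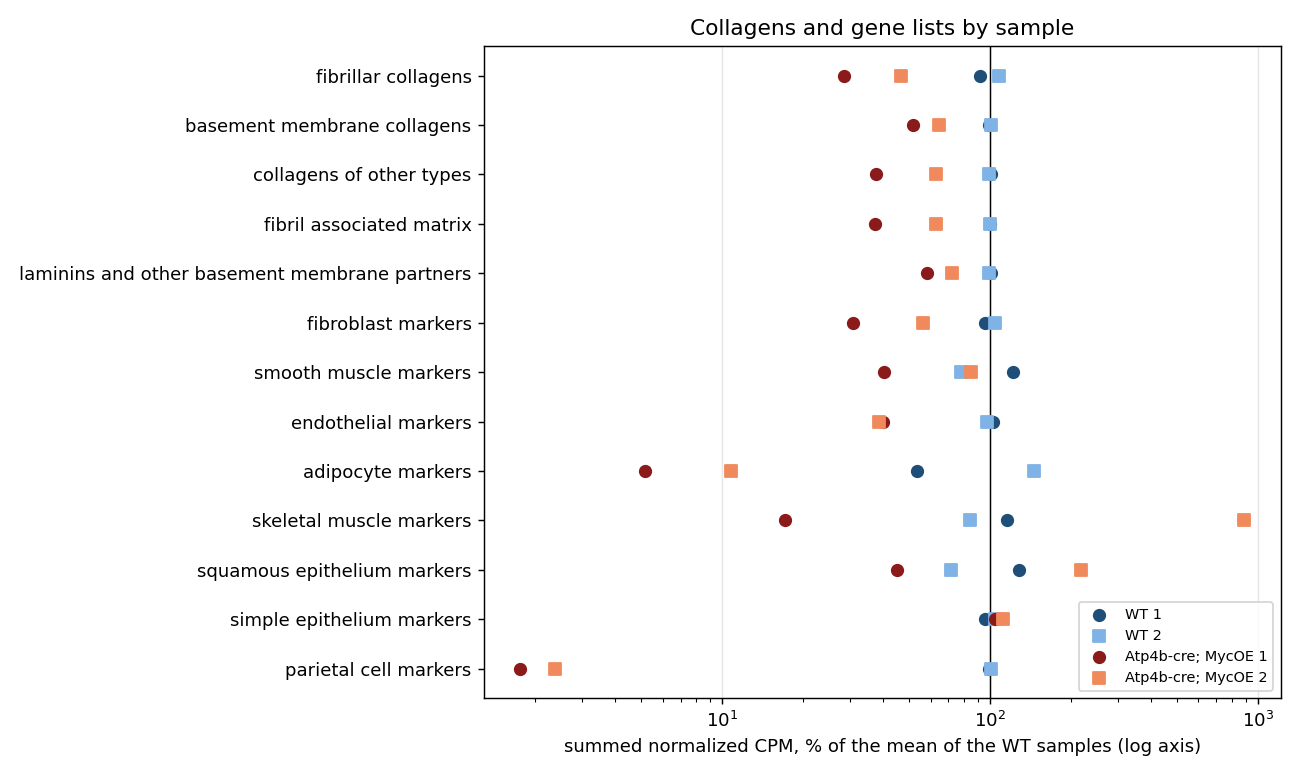
Summed normalized CPM of collagen types and gene lists as a percentage of the mean of the WT samples (x axis, log scale), with 1 point per sample. The collagen types and the fibroblast and endothelial markers lie left of 100% in both transgenic samples, whereas skeletal muscle and squamous markers lie on opposite sides of WT in the 2 transgenic samples.

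The number of calls rests on both WT samples. When either WT sample was left out, the edgeR calls of collagen genes were lost, as were those of all other genes. DESeq2 on all 4 samples called 24 collagen genes lower and 2 higher, and 3232 genes in all. Without WT replicate 1 the median log2 fold change of the tested members was -0.79. Without WT replicate 2, which leaves 3 samples alike in their Xist and Ddx3y counts, the median log2 fold change of the tested members was -1.02. In DESeq2 the same 12 members were called and 14 were added, among them Col1a2, Col4a1, Col4a2, Col5a1, Col5a2, Col5a3, Col6a2 and Col6a3.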

How the data were processed

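RNA sequencing of the stomach covered 2 samples of WT and 2 of Atp4b-cre; MycOE genotype. The submitters' processing notes name HISAT2 and mm10, and the counting tool, annotation and strand are not given in the sources used here. The authors deposited raw read counts per gene symbol, without normalization, and used DESeq2 themselves. The transgenic counts were re-sorted by name as described above, which uses no count value. The collagen family, whose members are set by name, and the gene lists were chosen with earlier results of these data known.

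The quasi-likelihood test of edgeR 4.0.16 (R 4.3.3) was run with TMM factors, filterByExpr by genotype and genotype as the only term, with Benjamini-Hochberg adjustment over all 17643 tested genes. Calls required an adjusted p under 0.05 and a log2 fold change beyond 0.585 in either direction. Standard errors were derived from each log2 fold change and its F statistic. Depth was 30260305 to 41463647 counts, a count of 0 allows 3 counts, and intervals and floors cover counting error only. Transcripts and positions came from GENCODE M21 on GRCm38. The genes named are all called members, the 12 with the highest mean CPM, the other members by value, and the called members of each list, while Serpinh1 was chosen after its values were seen. Alternatives were DESeq2 1.42.0, its size factors, library size, no filter, at least 10 counts in every sample, a replicate block, a log2 threshold of 1, the deposited order and each sample left out in turn. Scripts were first checked on simulated data.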

Additional observations from a re-analysis of the deposited data

How the results depend on the processing

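Against 11 collagen genes called lower, 1 higher and 1892 genes in all, DESeq2 called 24, 2 and 3232, and fits without a filter on low counts called 23 lower. The deposited order gave 22, 16 and 18580 and a median log2 fold change of -1.47 over the members, with 26 of 44 below 0. Among the 20 members that were called or most abundant, it gave opposite signs for Col4a3 (4.88), Col4a4 (4.56), Col26a1 (3.84) and Col9a3 (-0.41). Members outside these 20, such as Col23a1, changed sign as well. Library size in place of TMM gave 10 lower, 3011 genes in all and a median of -0.83, with the median of all genes moved to 0.235, and Col6a1 was no longer called. A threshold of 1 on the log2 scale left 10 lower, 1 higher and 1113 in all. With the replicate block 0 collagen genes were called lower and 0 higher, and 114 genes in all. The smallest adjusted p of a member was then 0.0541. Unadjusted, 27 members had a p under 0.05 in this edgeR fit, and the share of all tested genes that did is not given. The labels do not say that the numbers pair the samples, and same-numbered samples deviated with r = 0.067 over all tested genes and -0.35 over the members, so the block is only an alternative. Leaving out 1 sample gave 0 to 22 lower, 0 to 2 higher, 0 to 2470 in all and medians of -1.51 to -0.79, where the lone sample is assumed to vary like the other genotype. The counts of 0 came without WT replicate 1 or 2 (smallest adjusted p of a member 0.196 and 0.232), and 15 and 22 were called lower without transgenic replicates 1 and 2. Without transgenic replicate 1 Col16a1 and Col26a1 lost a call and 7 members gained one, lower for Col1a2, Col5a1, Col6a2, Col6a3, Col6a5 and Col14a1 and higher for Col17a1. Col26a1 also lost its call without transgenic replicate 2 and without the filter (adjusted p = 0.158 and 0.0691). The cause of these changes was not tested. The 20 members that were called or most abundant kept their sign under every alternative but the deposited order, 18 of them being tested with a minimum of 10 counts. DESeq2 size factors and a minimum of 10 counts each called 12 lower, and the second left Col2a1 and Col26a1 untested. Counts were low for Col2a1, Col6a6, Col9a1, Col10a1, Col22a1 and Col26a1, and all values rest on 2 samples per genotype.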
